A study of Mus musculus with 15 samples.

Results

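The guanylate-binding proteins (GBPs) were described here across 15 RNA-sequencing libraries of CT26, a mouse colon carcinoma cell line. The members were the 10 genes named Gbp2 to Gbp11, taken by symbol from the 34432 genes listed in both tables of normalized counts. The closely related Gbp2b is not a member and is given with the other dynamin-like GTPases.

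The libraries came from 2 experiments that were normalized separately, each with 3 libraries per group. In the first, the shControl group carried a control knockdown, and the shPrmt1 group a short hairpin RNA against Prmt1 whose expression was switched on with doxycycline (DOX) in a stably transduced line. PRMT1 is the main type I protein arginine methyltransferase, an enzyme that places asymmetric dimethylarginine on proteins. In the second experiment, wild-type (WT) CT26 cells received vehicle, MS023 or GSK3368715, both inhibitors of type I arginine methyltransferases. Both inhibitors were used at 6 µM for 48 h, and the knockdown was induced with DOX for 3 days. Whether the shControl cells also received DOX is not stated in the labels. The labels' design text calls the 3 libraries of a group biological replicates, and all came from the same cell line.

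GBPs are large GTPases of the dynamin superfamily that interferon-gamma, and more weakly type I interferons, induce in most mouse cells. The proteins assemble into polymers on the membranes of bacteria and of pathogen-containing vacuoles, where they help to disrupt the membrane and to engage inflammasomes. Some members, among them mouse Gbp2 and Gbp5, end in a CaaX box that receives a prenyl lipid, while others reach membranes by interacting with prenylated members.

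The 10 genes lay in 2 clusters of the mm10 genome (GENCODE M21 annotation). The chromosome 3 cluster, on the plus strand, held Gbp5 (chr3:142493978-142522344), Gbp7 (chr3:142530342-142550149), Gbp3 (chr3:142560026-142573209) and Gbp2 (chr3:142620602-142638008). The chromosome 5 cluster, on the minus strand, held Gbp8 (chr5:105014150-105139540), Gbp9 (chr5:105077630-105139539), Gbp4 (chr5:105115767-105139586), Gbp10 (chr5:105215699-105239533), Gbp6 (chr5:105270702-105293698) and Gbp11 (chr5:105323042-105346472). Gbp11 is annotated as a polymorphic pseudogene and the other members as protein-coding genes. The annotated spans of Gbp8, Gbp9 and Gbp4 overlap, since transcripts of all 3 genes reach a common first exon, and about 60 exonic bases are shared between them.

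The letters that interferon-activated factors are known to read are shown for the members with an entry in the RefSeq promoter table (GRCm38.p6), which were the 4 genes of the chromosome 3 cluster. Each window ran from 250 bases before to 50 after the transcription start, and Gbp3 had 2 windows. The core of the interferon-stimulated response element (ISRE), searched on both strands as GAAA, any 2 bases and GAAA, with overlapping matches counted, was present in 4 of the members' 5 windows and in 3.44% of all 32851 windows. Counted by gene, 4 of 4 members and 3.99% of 27025 genes had it in at least 1 window, and 1 of the 2 Gbp3 windows lacked it. The stretches below are on the plus strand, 5′ to 3′, and capitals mark the ISRE core, which in these genes lies on the opposite strand and so reads TTTC, 2 bases and TTTC.
Gbp2, chr3:142620579-142620621: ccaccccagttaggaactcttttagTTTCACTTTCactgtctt
Gbp3, chr3:142559974-142560025: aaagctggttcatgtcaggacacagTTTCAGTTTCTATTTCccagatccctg
Gbp5, chr3:142496744-142496803: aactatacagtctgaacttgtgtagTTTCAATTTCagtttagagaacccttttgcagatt
Gbp7, chr3:142530258-142530317: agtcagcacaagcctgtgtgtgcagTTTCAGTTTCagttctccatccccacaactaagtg

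The core began 59 bases before the RefSeq start in Gbp2, 53 in Gbp7 and 165 in Gbp5. In Gbp3, 2 overlapping cores began 45 and 39 bases before the start, which gives the run of 3 TTTC blocks in capitals. The Gbp2 core fell inside the first exon of a longer GENCODE transcript. The Gbp5 stretch lay within the GENCODE span of Gbp5, which begins at chr3:142493978, though in no annotated exon. The gamma-activated site, a motif of the interferon-gamma response, was searched as TTCNNNGAA on both strands and was found in Gbp5 and Gbp7, in 2 places each, and in 8.30% of all windows. These are matches of letters in a window and no measurement of binding was made here. The chromosome 5 members were Gbp4, Gbp6, Gbp8, Gbp9, Gbp10 and Gbp11, and no promoter sequence is given for them.

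Depth and low levels limited what could be seen of the rarest members. Reads assigned to genes ranged from 17284091 to 29233738 in the knockdown experiment and from 40119305 to 93697833 in the inhibitor experiment. All values were whole multiples of the value of 1 read, so that reads were recovered for 100% of them. Prmt1 itself fell by 3.00 on the log2 scale in the shPrmt1 libraries (SE 0.07, limma with Benjamini-Hochberg adjustment, adjusted p = 3.8e-07), while its change was -0.07 with MS023 and -0.01 with GSK3368715 (adjusted p = 0.35 and 0.91). Among 11 markers of colon epithelium and carcinoma, 9 stayed under 1 RPM (reads scaled to a library total of 1000000) in every group and Epcam was at 0 in every library, whereas Krt18 reached a group mean of 27.0 RPM. The mesenchymal gene Vim stood at 3112 to 3413 RPM, so the labelled colon origin was not visible in its defining epithelial markers. Of 12 leukocyte markers, 11 stayed under 1 RPM in every group, Cd3e had no read in any library, and the summed level of the list was 1.62 to 5.20 RPM, lower in the knockdown experiment (1.62 to 2.63) than in the inhibitor experiment (3.59 to 5.20).

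Loss of Prmt1 was accompanied by higher GBP mRNA. The 10 members together accounted for 38.2 ± 2.14 RPM (SD, n = 3) in shControl and 134 ± 11.05 in shPrmt1 libraries, a ratio of 3.43 between the mean normalized counts. Differences for single members are given as log2 fold changes of normalized counts with a pseudocount of 1, tested with limma across 11485 genes. 6 of the 10 members passed an adjusted p of 0.05 and all 6 were higher, where 7.50% of all genes tested were called higher. Gbp6 was tested and did not pass, and Gbp8, Gbp10 and Gbp11 had too few reads to be tested. The 6 called members did not overlap between groups, as was the case for 19.2% of all genes tested in the same direction. The cultures were measured in bulk, so fewer or more expressing cells and less or more RNA per cell cannot be told apart.

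**Figure D1:**
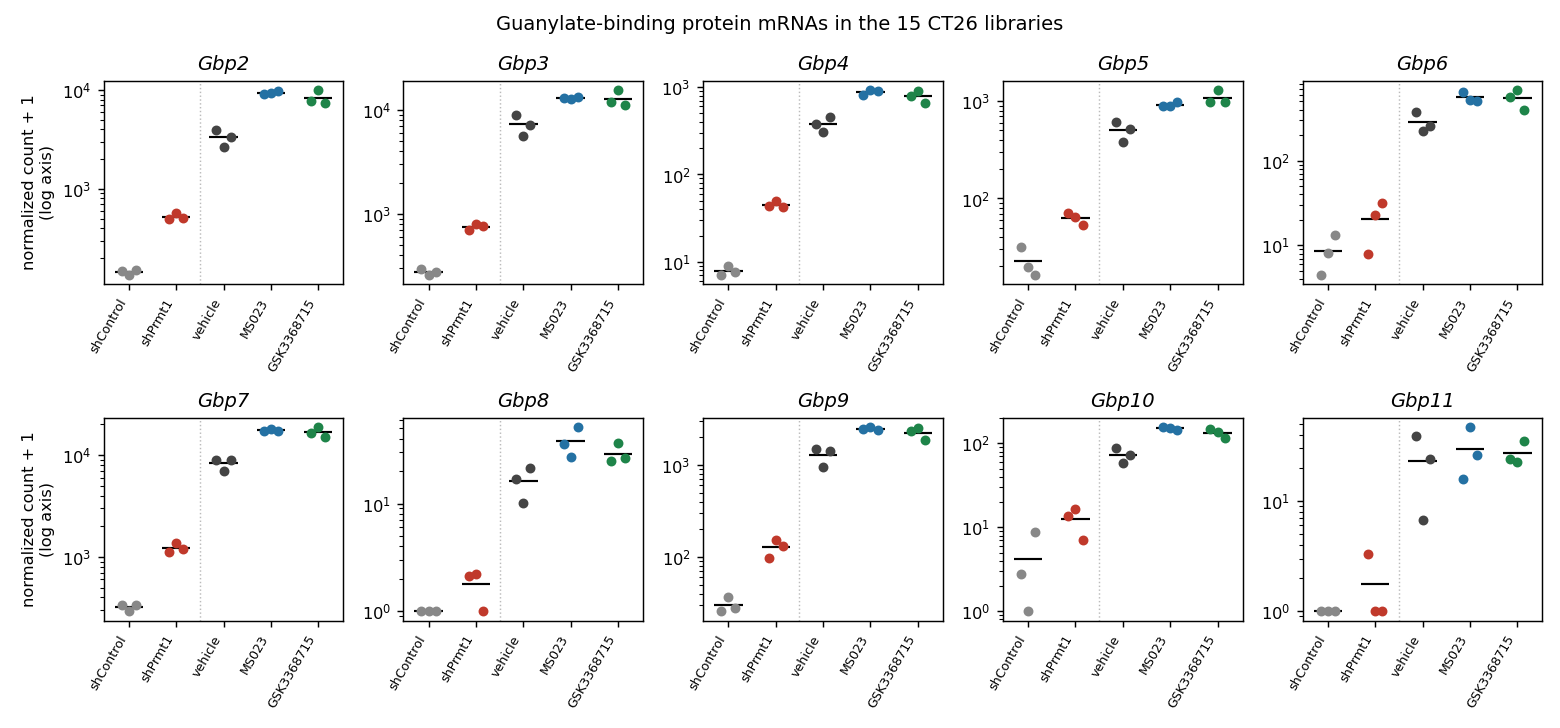
Normalized count plus 1 (log axis) of each of the 10 members in each of the 15 libraries. Points are libraries in replicate order, black lines are group means, and the dotted line separates the 2 experiments, which were normalized separately. For Gbp2, Gbp3, Gbp4, Gbp5, Gbp7 and Gbp9 the points of shPrmt1, MS023 and GSK3368715 all lie above those of their own controls, whereas Gbp11 overlaps between groups in both experiments.

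Gbp2, a prenylated member that is recruited to vacuoles of intracellular parasites, read 148, 135 and 149 normalized counts across shControl, against 492, 571 and 511 across shPrmt1. The highest control lay far below the lowest knockdown library, and the log2 fold change was 1.86 (SE 0.10, adjusted p = 3.9e-05). Gbp7, which is linked to antimicrobial defence in macrophages, had the most reads of any member, with 338, 291 and 338 normalized counts in shControl and 1115, 1371 and 1202 in shPrmt1. Its log2 fold change was 1.93 (SE 0.10, adjusted p = 3.9e-05). Gbp3 was present at 293, 258 and 272 normalized counts in shControl and at 690, 801 and 767 in shPrmt1. It had the smallest change of the 6 called members, with a log2 fold change of 1.45 (SE 0.09, adjusted p = 9.1e-05).

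Gbp5, the other chromosome 3 member and a prenylated protein tied to inflammasome activation, was much rarer. Its normalized counts were 30.8, 18.7 and 15.5 in shControl and 69.7, 63.0 and 52.1 in shPrmt1. The log2 fold change was 1.51 (SE 0.28, adjusted p = 0.010), and the spread among the controls was wider, relative to the mean, than for the 3 abundant members of the cluster.

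On chromosome 5, Gbp9 and Gbp4 changed the most in proportion. Gbp9 rose from 24.7, 36.0 and 26.5 to 97.2, 153 and 131 normalized counts, a log2 fold change of 2.08 (SE 0.23, adjusted p = 9.4e-04). Gbp4 stood at 6.16, 7.92 and 6.63 normalized counts in shControl, which are 6 to 11 reads, but at 42.3, 48.5 and 41.8 in shPrmt1. Its log2 fold change was 2.52 (SE 0.26, adjusted p = 7.6e-04). Gbp4 met the minimum level for testing only through the shPrmt1 libraries, so that it could enter the test only by being higher there, and its value is a description of those reads more than an independent entry in the count of 6.

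The remaining chromosome 5 members were at the limit of detection in this experiment. Gbp6 had 3.52, 7.20 and 12.2 normalized counts in shControl and 6.86, 21.8 and 30.6 in shPrmt1. The groups overlapped, the 95% interval of its log2 fold change of 1.18 ran from -0.21 to 2.56, and the adjusted p was 0.22. Gbp10 had 2, 0 and 7 reads in shControl and 11, 13 and 6 in shPrmt1, which also overlap. Gbp8 and Gbp11 had no read in any shControl library, which allows up to 3 reads in each, and 2 reads each over the whole shPrmt1 group, so no difference was detectable for them at this depth.

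Gbp6 and Gbp10 are near-identical copies, and reads may be split between them and another annotated gene, Gm43302. The longest Gbp10 transcript matched Gbp6 at 99.1% identity over 94.3% of its length and Gm43302 at 99.2% over 97.8%. Gm43302 also shares 46.3% of the exonic bases of Gbp10 and 29.0% of those of Gbp6 on the same strand. When the reads of these 3 genes were summed, the sum was higher in shPrmt1 with a log2 fold change of 1.37 (SE 0.22, limma adjusted p = 0.0056). The values of Gbp6 and Gbp10 taken singly are therefore uncertain. For Gbp7, a processed pseudogene on the same strand, Gm43802, covers 11.3% of the exonic bases.

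GBP mRNA was also higher with each of the inhibitors. The 10 members summed to 358 ± 67.5 RPM (SD, n = 3) in vehicle, 768 ± 12.1 with MS023 and 721 ± 108 with GSK3368715, which are ratios of 2.10 and 2.00 between the mean normalized counts. With MS023, 9 of the 10 members were called higher and none lower, where 13.7% of the 13014 genes tested were called higher. With GSK3368715, 8 of the 10 were called higher and none lower, where 5.16% of all genes were called higher. Both comparisons use the same 3 vehicle libraries. In each, 9 members did not overlap with vehicle in the upward direction, against 22.4% of all genes for MS023 and 13.7% for GSK3368715. Gbp8, in each of these counts of 9, met the minimum level for testing only with treated libraries.

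The vehicle libraries differed among themselves in a way that touched the whole family. Vehicle 2 was the lowest of the 3 for 10 of 10 members, with a family sum of 285 RPM beside 417 and 374 in vehicle 1 and vehicle 3. GSK3368715 2 was the highest library of its group for 8 of 10 members and GSK3368715 3 the lowest for 8 of 10, whereas the 3 MS023 libraries lay close together, at 755 to 778 RPM. Without vehicle 2, the family sum in vehicle averaged 395 RPM. The ratios between the mean normalized counts were then 1.91 for MS023 and 1.82 for GSK3368715.

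Gbp2 showed the largest log2 fold change of any member with each inhibitor. It read 3971, 2627 and 3379 normalized counts in vehicle, 9099, 9356 and 9791 with MS023 and 7800, 9981 and 7367 with GSK3368715. The log2 fold change was 1.52 with MS023 (SE 0.14, limma adjusted p = 7.8e-05) and 1.34 with GSK3368715 (SE 0.14, adjusted p = 7.2e-04).

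Gbp7 again had the most reads. In vehicle it read 8953, 7034 and 9003 normalized counts, with MS023 17092, 18123 and 17131, and with GSK3368715 16315, 18873 and 15083. Each treated library exceeded each vehicle library, and the log2 fold changes were 1.08 and 1.01 (SE 0.10 for both, adjusted p = 8.3e-05 and 5.5e-04). Gbp3 read 8929, 5658 and 7273 in vehicle, 12999, 12963 and 13417 with MS023 and 11911, 15577 and 11221 with GSK3368715. Its log2 fold changes were 0.87 and 0.83 (SE 0.15 for both, adjusted p = 0.0022 and 0.0085), and the MS023 value was the smallest among the members called with that inhibitor.

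Gbp5 read 615, 382 and 517 normalized counts in vehicle, 895, 889 and 986 with MS023 and 973, 1295 and 970 with GSK3368715. It was the member whose estimate was higher with GSK3368715 than with MS023, at log2 fold changes of 1.11 and 0.90 (SE 0.16 for both, adjusted p = 0.0034 and 0.0028).

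The chromosome 5 members could be measured at the depth of this experiment. Gbp4 had 380, 308 and 450 normalized counts in vehicle, 814, 918 and 911 with MS023 and 791, 893 and 651 with GSK3368715. The 2 treated groups lay wholly above vehicle, with log2 fold changes of 1.23 and 1.04 (SE 0.15 for both, adjusted p = 2.7e-04 and 0.0027). Gbp9 had 1478, 941 and 1400 in vehicle, 2430, 2586 and 2388 with MS023 and 2333, 2519 and 1860 with GSK3368715, and its log2 fold changes were 0.98 and 0.83 (SE 0.16 for both, adjusted p = 0.0014 and 0.011).

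Gbp10, which could not be tested in the knockdown, rose from 88.0, 57.8 and 72.4 normalized counts in vehicle to 156, 153 and 143 with MS023 and 147, 137 and 116 with GSK3368715. Its log2 fold changes were 1.06 and 0.88 (SE 0.17 for both, adjusted p = 0.0014 and 0.012). Its near copy Gbp6 read 375, 224 and 256 in vehicle, 647, 526 and 499 with MS023 and 568, 677 and 393 with GSK3368715. The lowest GSK3368715 library stood just above the highest vehicle library, and the log2 fold changes were 0.99 and 0.93 (SE 0.22 for both, adjusted p = 0.0077 and 0.025). The GSK3368715 call of Gbp6 was lost on leaving out vehicle 2 (0.78, adjusted p = 0.057), vehicle 3 (0.87, adjusted p = 0.087), GSK3368715 1 (0.89, adjusted p = 0.075) or GSK3368715 2 (0.76, adjusted p = 0.080). The sum of Gbp6, Gbp10 and Gm43302 was higher with both inhibitors, by 0.95 and 0.87 (SE 0.18 for both, adjusted p = 0.0036 and 0.015).

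Gbp8 and Gbp11 remained rare. Gbp8 had 15.9, 9.08 and 20.5 normalized counts in vehicle, 35.0, 26.3 and 50.4 with MS023 and 23.6, 35.4 and 25.3 with GSK3368715, from 11 to 56 reads per library. It passed with MS023 (log2 fold change 1.26, SE 0.36, adjusted p = 0.023) and missed the threshold with GSK3368715 (0.90, SE 0.36, adjusted p = 0.14), and the difference between the inhibitors is tested below. In vehicle, 2 of the 3 libraries reached the minimum level for testing. Gbp8 therefore could not meet it on the vehicle libraries alone and met it through the treated libraries of both inhibitors. Its place in the counts of called and of non-overlapping members is thus not independent of its being higher. The MS023 call did not hold without vehicle 2 (0.95, adjusted p = 0.066), MS023 1 (1.28, adjusted p = 0.060) or MS023 3 (1.02, adjusted p = 0.096). For the pseudogene Gbp11, the values were 37.9, 5.78 and 22.9 in vehicle, 14.995, 45.9 and 25.2 with MS023 and 22.9, 21.5 and 34.2 with GSK3368715. These groups overlapped, with log2 fold changes of 0.55 and 0.53 (SE 0.60 for both, adjusted p = 0.53 and 0.63) that turned to -0.18 and -0.20 without vehicle 2.

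Without vehicle 2, the members whose calls held had log2 fold changes of 0.70 (Gbp3) to 1.36 (Gbp2) with MS023 and 0.63 (Gbp9) to 1.18 (Gbp2) with GSK3368715. Taking the 6 inhibitor libraries as a single group against vehicle gave 9 members called higher, where 11.3% of all genes were called higher, with log2 fold changes from 0.85 (Gbp3) to 1.43 (Gbp2) among those called. Gbp8, counted among these 9, met the minimum level only with treated libraries, and its pooled call was lost without vehicle 2 (0.77, adjusted p = 0.12). With a log2 fold change of at least 1 required as well, 6 members remained in the knockdown (1.72% of all genes tested), 5 with MS023 (1.80%), 4 with GSK3368715 (0.661%) and 5 with the inhibitors pooled (1.23%).

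**Figure D2:**
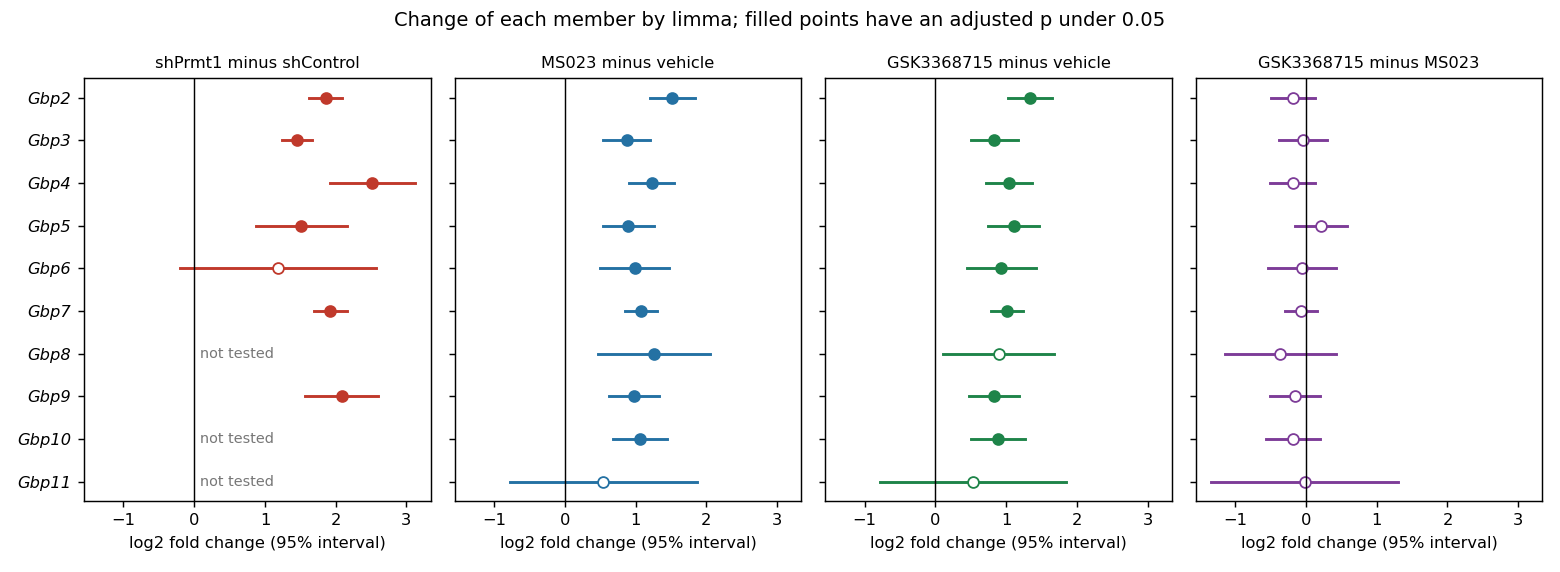
Log2 fold change of each member with its 95% interval by limma, for the knockdown, for each inhibitor against vehicle, and for the direct difference between the inhibitors. Filled points have an adjusted p under 0.05. In the first 3 panels the intervals of the filled points all lie right of 0, with estimates from 0.83 (Gbp9 with GSK3368715) to 2.52 (Gbp4 in the knockdown), and in the last panel every interval crosses 0.

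The 2 inhibitors were compared directly at the same dose and time, as a single pair. None of the 10 members differed between GSK3368715 and MS023 by limma, where 0.515% of all genes tested were called in either direction. The members' count was also 0 at an unadjusted p under 0.05 (13.2% of all genes tested), with edgeR on the recovered reads (0.530%) and with DESeq2 (2.90%). The estimates, as GSK3368715 minus MS023, ranged from -0.36 for Gbp8 to 0.21 for Gbp5, and the smallest adjusted p was 0.63. The intervals bound these differences rather than show that the compounds acted alike. They were narrow for the abundant members, at -0.29 to 0.16 for Gbp7 and -0.49 to 0.13 for Gbp2, and wide for the rare ones, at -1.15 to 0.42 for Gbp8 and -1.34 to 1.30 for Gbp11.

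Per length of exon, 3 members made up nearly all of the members' mRNA in every group. In vehicle, Gbp3 stood at 37.2 ± 8.65 RPM per kb (SD, n = 3), Gbp7 at 24.7 ± 3.52 and Gbp2 at 22.0 ± 4.64. The vehicle ranges of Gbp7 and Gbp2 overlapped, while that of Gbp3 lay above both. Gbp9 followed at 4.10 ± 0.97, then Gbp5 at 1.27 ± 0.30, Gbp4 at 0.84 ± 0.16 and Gbp6 at 0.80 ± 0.23, and these last 3 overlapped as neighbours. Gbp10 at 0.31 ± 0.07 was clear of both its neighbours, and Gbp11 at 0.14 ± 0.10 and Gbp8 at 0.07 ± 0.03 overlapped. The relative Gbp2b, which is not counted as a member, stood at 14.8 ± 3.33 RPM per kb in vehicle. Its mean lay below those of Gbp3, Gbp7 and Gbp2 and above that of Gbp9 in every group.

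With the inhibitors, Gbp2 stood above Gbp7 in the order of the means. With MS023, Gbp3 stood at 68.6 ± 1.25 RPM per kb, Gbp2 at 63.8 ± 2.30 and Gbp7 at 53.0 ± 1.77, and these 3 ranges were separate. With GSK3368715 the same order was found, at 66.5 ± 12.1, 56.1 ± 9.38 and 50.2 ± 5.84, with overlapping ranges. In shControl the levels were 3.97 ± 0.23 for Gbp3, 2.71 ± 0.22 for Gbp7 and 2.70 ± 0.14 for Gbp2, and in shPrmt1 they were 11.1 ± 0.73, 10.6 ± 1.00 and 10.1 ± 0.68, all 3 overlapping and in the same order as in shControl. Taking the longest transcript as the length left each member's rank the same in every group.

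**Figure D3:**
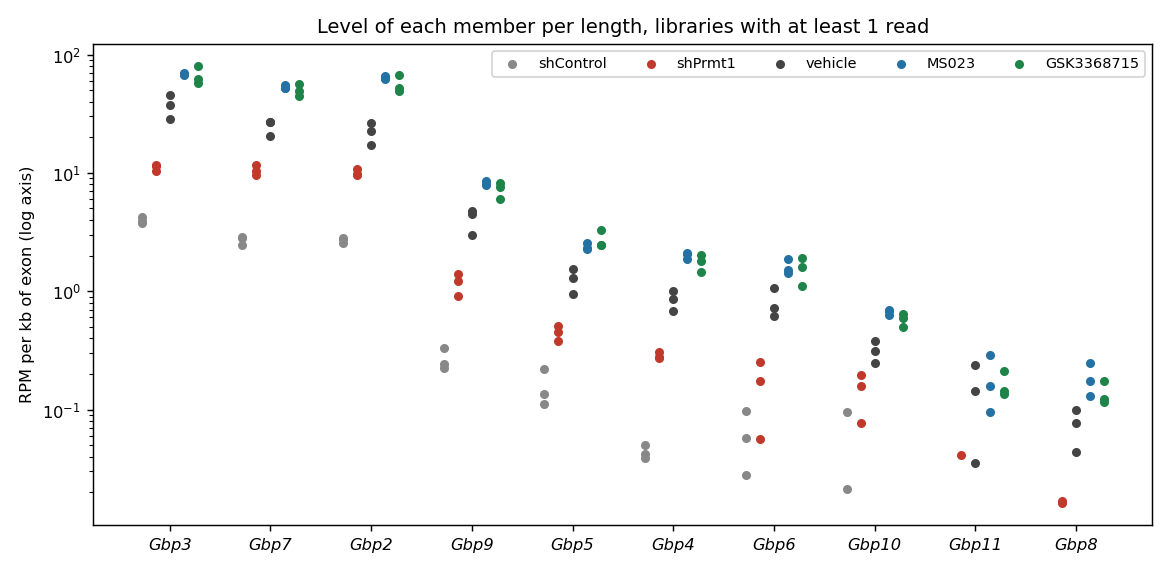
Level in RPM per kb of exon (log axis) of each member, ordered by the vehicle mean, in every library with at least 1 read. Colours are the 5 groups. Gbp3, Gbp7 and Gbp2 stand above the other 7 members in every group, with vehicle means of 37.2, 24.7 and 22.0 against 4.10 for the next member, Gbp9.

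Since the members did not rise by the same factor, the makeup of the family shifted. The ratio of Gbp2 to Gbp3 within a library needs no normalization between libraries, and it was chosen for description after the values were seen, with no test. It was 0.50 to 0.55 in shControl and 0.67 to 0.71 in shPrmt1, 0.44 to 0.46 in vehicle, 0.70 to 0.73 with MS023 and 0.64 to 0.66 with GSK3368715. No treated library reached down to the range of its controls, and the MS023 and GSK3368715 ranges were also separate. The ratio of Gbp7 to Gbp3 was 1.13 to 1.24 in shControl and 1.57 to 1.71 in shPrmt1, again without overlap. In the inhibitor experiment it was 1.00 to 1.24 in vehicle, 1.28 to 1.398 with MS023 and 1.21 to 1.37 with GSK3368715, so that GSK3368715 overlapped with vehicle.

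**Figure D4:**
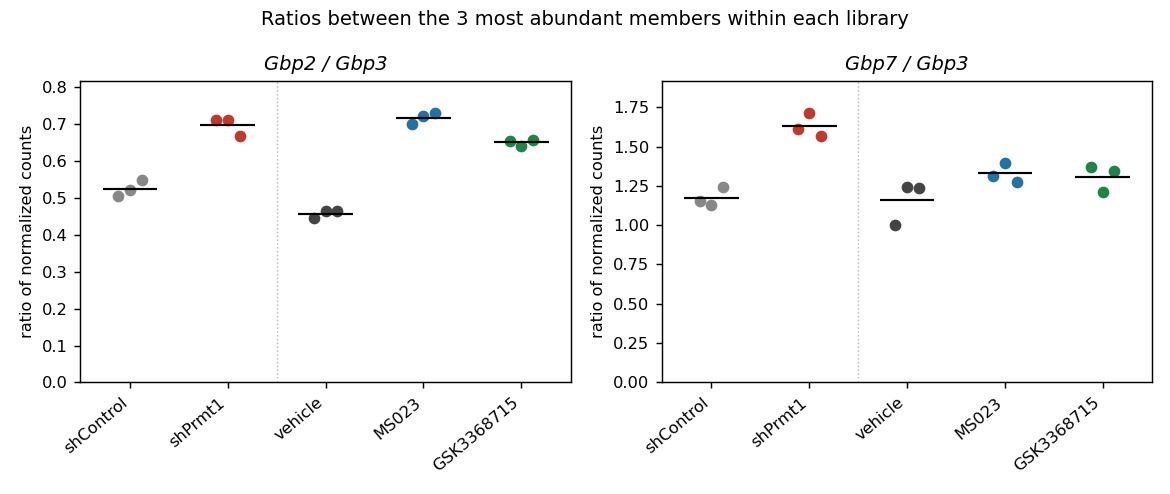
Ratio of the normalized counts of Gbp2 to Gbp3 (left) and of Gbp7 to Gbp3 (right) within each library, from 0, with group means as black lines. The Gbp2 to Gbp3 ratio is 0.50 to 0.55 in shControl and 0.44 to 0.46 in vehicle, and between 0.64 and 0.73 in the 9 treated libraries.

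Shares were taken of the summed reads of the members, without Gbp2b. For Gbp3 the median share was 34.2% in shControl and 27.3% in shPrmt1. In the inhibitor experiment it was 32.8% in vehicle, 29.4% with MS023 and 29.8% with GSK3368715. Gbp7 took 39.96% in shControl and 44.1% in shPrmt1, but between 38.7% and 40.2% in the 3 groups of the inhibitor experiment. Gbp4 took 0.80% in shControl and 1.59% in shPrmt1. In the inhibitor experiment its median share was 1.78% in vehicle and with GSK3368715 and 2.01% with MS023, and the ranges of the 3 groups overlapped.

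The 2 control groups did not start from the same level. In RPM, the family sum in vehicle was 9.37 times that in shControl, and 2.67 times that in shPrmt1. For the 8 members with reads in shControl, the ratio of vehicle to shControl ranged from 8.09 (Gbp10) to 19.4 (Gbp4), whereas for Prmt1 it was 0.97. Both ends of that range rest on few shControl reads, 2, 0 and 7 for Gbp10 and 7, 11 and 6 for Gbp4. Among members with more reads, the ratio was 8.15 for Gbp2, 9.37 for Gbp3, 9.11 for Gbp7 and 15.4 for Gbp9. RPM already divides by the depth of each library and does not use the separate normalization. The experiments were run separately, with stably transduced CT26 cells in the first and WT cells in the second. They also differed in treatment, and these cannot be told apart as the source of the difference.

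Across the 15 libraries, each as its difference from the mean of its own controls on the log2 scale, the 7 members tested in both experiments moved together. Pearson's r of each with the mean of the other 6 ranged from 0.70 for Gbp6 to 0.99 for Gbp3. The points share libraries and depth, and each profile is set to its own controls. Members that were higher in the treated libraries are therefore bound to correlate over the 15 libraries. Gbp4 was among the 7 only because the shPrmt1 libraries brought it to the minimum level. The correlations are thus a description and no separate sign of shared regulation. The genes that resembled the mean of these 7 most closely, among 10170 genes ranked over the same 15 libraries, were Rsad2 (r = 0.99), Parp12 (r = 0.99), Cmpk2 (r = 0.99), Herc6 (r = 0.99) and Parp9 (r = 0.98). Rsad2, which encodes the antiviral enzyme viperin, had log2 fold changes of 1.68 in the knockdown, 0.94 with MS023 and 0.97 with GSK3368715. The mean of the 7 members lay higher in every treated library than in its controls. Genes picked by their likeness to it are bound to be higher there too, so these changes are description only.

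Genes linked to GBPs by pathway, or only by belonging to a related GTPase family, were then examined in 7 lists. The background of all genes tested was 7.50% called higher and 7.17% lower in the knockdown. It was 13.7% and 14.1% with MS023, and 5.16% and 4.47% with GSK3368715. Of the 15 interferon receptors and JAK-STAT-IRF inducers, 5 were called higher in the knockdown, 8 with MS023 and 5 with GSK3368715, and none lower. The receptor genes Ifnar1, Ifnar2, Ifngr1 and Ifngr2 were called in no comparison. Irf7, a transcription factor of the interferon response, rose by 1.80, 0.93 and 0.68 on the log2 scale (adjusted p = 5.1e-05, 0.0011 and 0.017). The median log2 fold change of the list was 0.16, 0.27 and 0.26, beside a median of 0.00 for all genes. Without MS023 2 the MS023 count was 5.

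Among the negative regulators of interferon signalling, 2 of 12 tested were higher and 1 lower in the knockdown, 6 of 13 were higher with MS023 and 3 of 13 with GSK3368715. Isg15, a ubiquitin-like modifier, rose in all 3 comparisons, by 0.99, 0.61 and 0.51 (adjusted p = 1.9e-04, 0.0031 and 0.020). Usp18, which removes that modifier and damps type I interferon receptor signals, rose by 1.63 in the knockdown and 0.46 with MS023 (adjusted p = 5.4e-05 and 0.041), with 0.51 and adjusted p = 0.054 for GSK3368715. The list's median was 0.11, 0.23 and 0.12. The GSK3368715 count fell to 0 without vehicle 3 and to 1 without any single GSK3368715 library, the knockdown count of higher genes was 4 without shPrmt1 2, the lower call, Socs2, held only without shPrmt1 2, and 1 gene was called lower with MS023 without vehicle 2.

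The immunity-related GTPases, a second family of interferon-inducible GTPases that load onto pathogen vacuoles with GBPs, had the largest share of genes called of the 7 lists. All 10 that were tested were called higher in the knockdown, 9 of 12 with MS023 and 10 of 12 with GSK3368715, and none lower. Iigp1 rose by 2.34, 1.29 and 1.34 (adjusted p = 0.0011, 1.6e-04 and 6.5e-04). Tgtp1, a close copy of Tgtp2 whose reads may be split between them, rose by 3.05, 1.16 and 1.08 (adjusted p = 1.2e-04, 6.1e-05 and 4.9e-04). The median was 1.81, 0.83 and 0.81. Gm4951, counted among the 10, reached the minimum level in 2 of the 3 shControl libraries. It could therefore be tested only with the shPrmt1 libraries, so its place in that count is not independent of its being higher.

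Most genes of the machinery that brings GBPs to vacuoles, the ATG conjugation system and ubiquitin factors, did not pass. Of 14 tested, 4 were higher in the knockdown, 2 with MS023 and 1 with GSK3368715, and none lower, with medians of 0.17, 0.09 and 0.06. Trim21, an antibody receptor and ubiquitin ligase, rose by 1.10, 0.58 and 0.49 (adjusted p = 0.0052, 0.0028 and 0.017). The knockdown count was 2 without shControl 1 or shControl 3. On leaving out vehicle 1 or GSK3368715 2 the MS023 count became 5 or 4, and on leaving out vehicle 3, MS023 2 or MS023 3 it became 1. The GSK3368715 count was 0 without GSK3368715 1 or GSK3368715 2.

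For prenylation and CaaX processing, the pathway that lipidates Gbp2 and Gbp5, 1 of 8 genes passed in each of 2 comparisons and the medians were -0.03, 0.08 and 0.02. The gene was Fdps, which makes farnesyl diphosphate, and it changed in opposite directions: its log2 fold change was -0.37 in the knockdown (adjusted p = 0.011) and 0.49 with MS023 (adjusted p = 2.8e-04). With GSK3368715 it was 0.08 (adjusted p = 0.45). No gene of this list was called with GSK3368715 by limma. The knockdown call was lost without shControl 1 or shControl 3, and 2 genes were called higher with MS023 without GSK3368715 2.

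Of the inflammasome and pyroptosis genes that act downstream of GBPs, 9 of 13 were tested, and 3 were higher in the knockdown, 4 with MS023 and 2 with GSK3368715, with medians of 0.28, 0.25 and 0.13. Casp1, the inflammasome protease, rose by 0.64, 0.83 and 0.60 (adjusted p = 0.0059, 1.3e-04 and 0.0029), and Gsdmd, the pore-forming protein it cleaves, by 0.54, 0.52 and 0.40 (adjusted p = 0.0043, 5.1e-04 and 0.0071). Casp4, the mouse sensor of cytosolic lipopolysaccharide, rose by 1.74 in the knockdown (adjusted p = 0.0024) and had 0.25 and 0.53 with the inhibitors (adjusted p = 0.41 and 0.15). Casp8 was called lower in all 3 comparisons, at -0.32, -0.23 and -0.26 (adjusted p = 0.026, 0.029 and 0.039), but the call rested on many single libraries: of 6 knockdown libraries left out in turn, it held only without shPrmt1 2, and of 9 inhibitor libraries it was lost in 5 cases for MS023 (vehicle 2, vehicle 3 and each MS023 library) and in 7 for GSK3368715 (all but vehicle 1 and GSK3368715 2). Without vehicle 1 the GSK3368715 count of higher genes was 4.

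Of the other dynamin-like large GTPases, 12 of 13 were tested, and 5 were higher in the knockdown and 4 with each inhibitor, with medians of 0.29, 0.10 and 0.07. Gbp2b, the chromosome 3 relative of Gbp2, rose by 1.80, 1.45 and 1.32 (adjusted p = 1.5e-04, 1.6e-04 and 0.0010), and the antiviral GTPase Mx1 by 1.96, 1.55 and 1.34 (adjusted p = 0.0065, 0.0018 and 0.012). Atl1, an endoplasmic reticulum fusion GTPase, rose by 1.94 in the knockdown (adjusted p = 0.0059) and had -0.65 and -0.32 with the inhibitors (adjusted p = 0.19 and 0.61). In the knockdown, Mx1 and Atl1 met the minimum level for testing only with the shPrmt1 libraries, as 0 and 1 of the 3 shControl libraries reached it, so their places in the count of 5 are not independent of their being higher. Opa1, which fuses inner mitochondrial membranes, was lower with both inhibitors, at -0.29 and -0.23 (adjusted p = 0.0026 and 0.020), a call lost for GSK3368715 without vehicle 3, GSK3368715 1 or GSK3368715 2. The knockdown count of higher genes was 3 without shControl 1 or shControl 2, 1 gene was called lower there without shPrmt1 2, and 2 were called lower with MS023 without vehicle 1.

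**Figure D5:**
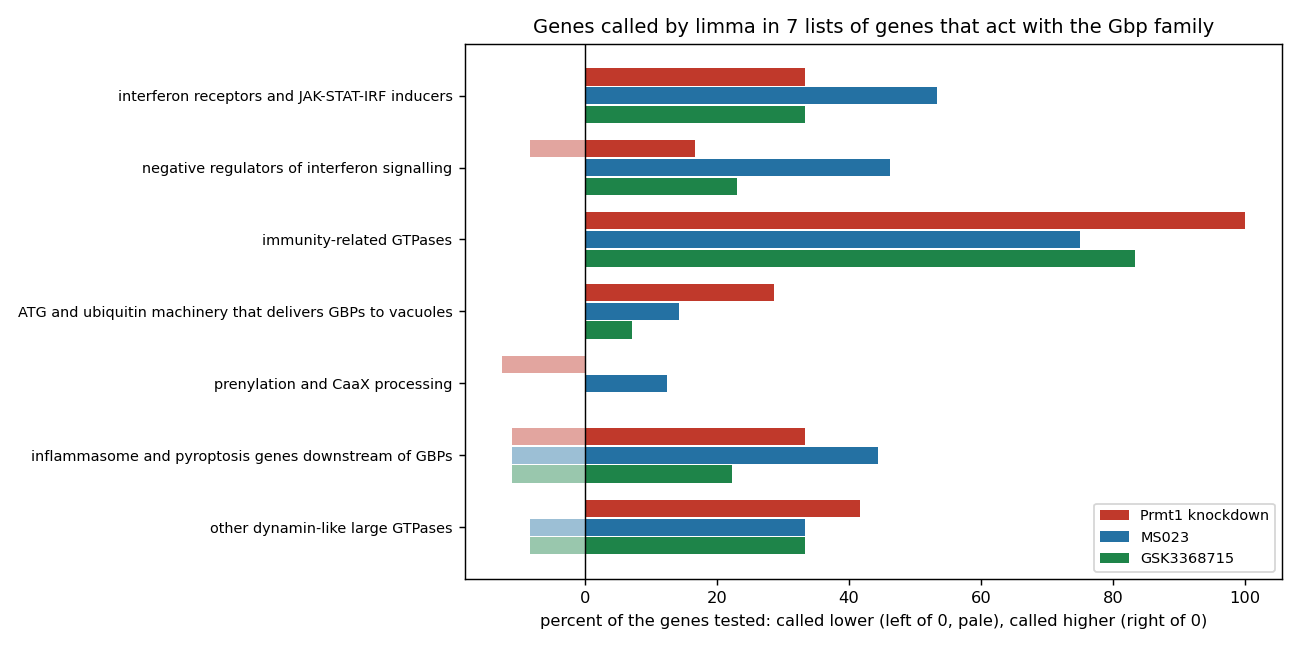
Percent of the tested genes in each of 7 lists that limma called higher (right of 0) or lower (left of 0, pale) in the knockdown and with each inhibitor. The immunity-related GTPases have the longest bars, at 10 of 10, 9 of 12 and 10 of 12 genes called higher, and prenylation has at most 1 of 8 genes called in any comparison.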

How the data were processed

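Gene-level values of the 15 CT26 libraries were used. Per the labels and the study's methods, the authors prepared mRNA libraries, sequenced paired ends, quantified transcripts with Salmon 1.4.0 on mm10 and divided counts by DESeq2 size factors. The deposited values are thus a normalized signal per gene and library, with a separate table for each of the 2 experiments. The 3 deposited comparison tables (fold changes and p-values) were not used. Reads were recovered by dividing each library by the value of 1 read (100% whole within 0.01).

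Genes reaching 10 normalized counts in 3 or more libraries were analysed as log2(normalized count + 1) in limma 3.58.1 (R 4.3.3; moderated by eBayes with a trend), two-sided and at 0.05 after Benjamini-Hochberg adjustment over all genes tested. The knockdown was fitted as 3 libraries against 3, and the 9 inhibitor libraries in a single fit. Fold changes on this scale understate those of rare genes. edgeR 4.0.16 and DESeq2 1.42.0 on recovered reads, other pseudocounts, filters and scalings, summed near-copies and leaving out single libraries were the alternatives. The test was checked on simulated reads with a single fixed spread, in which only genes well above the minimum level were changed. That check does not bear on calls of rare members or on noisier libraries.

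Levels between genes were compared as reads scaled to a fixed library total (RPM) per kb of exon (GENCODE M21). Same-numbered libraries deviated together weakly in the knockdown (r from 0.06 to 0.12 in 3 pairs) and not throughout in the inhibitor experiment (-0.10 to 0.11 in 9). The numbers were not taken as pairs in the main fit. Members and lists were chosen with earlier results of these data known. All members were named, with up to 3 called genes of largest change per list and comparison, and Opa1, and values of genes so named in other comparisons, were added after their values were seen. The values of 1 listed gene are not reported here. Near-copies were transcripts matching at 95% identity over at least 30% of their length. Limits of 3 reads for a count of 0 cover counting error only.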

Additional observations from a re-analysis of the deposited data

Results flagged for a closer look

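Fdps, a farnesyl diphosphate synthase in the prenylation list, differed between the inhibitors, with a log2 difference of -0.42 for GSK3368715 minus MS023 (SE 0.06, limma with Benjamini-Hochberg adjustment, adjusted p = 0.020), from mean normalized counts of 12311 and 16415. The estimate stayed between -0.47 and -0.38 under the alternatives, but the call was lost with the replicate block (adjusted p = 0.077), with no variance trend (0.068), and without MS023 1, MS023 2, MS023 3, GSK3368715 1 or GSK3368715 2 (adjusted p of 0.073 to 0.11). Against vehicle it was higher with MS023, by 0.49 in log2, and it was lower in the Prmt1 knockdown, at -0.37, with no overlap between libraries in either case, the knockdown call being lost without shControl 1 or shControl 3. The difference between the knockdown and MS023 was not tested.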

How the results depend on the processing

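The number of members called higher stayed within 1.5 times the reported count under all other settings tried apart from the following. A minimum log2 change of 1 in size left 5 members with MS023, 4 with GSK3368715 and 5 with the inhibitors pooled, as against 6 in the knockdown. With the chromosome 5 cluster summed, an alternative chosen after seeing the data, 5 features were called in each of these 3 comparisons, because 6 members become 1. Treating the replicate numbers as pairs (a replicate block) gave 6 members in the knockdown, 9 with MS023, 8 with GSK3368715, 0 for the difference between inhibitors and 9 pooled, and changed no member's call. Over all genes tested, the block moved the number called higher from 861 to 1346 in the knockdown. With MS023 the number went from 1784 to 1578 and with GSK3368715 from 672 to 459. The Gbp6 call with GSK3368715 was also lost with no variance trend (adjusted p = 0.063) and in a fit of only the 2 groups (adjusted p = 0.062). The pooled Gbp8 call was lost with no filter on low values (adjusted p = 0.059) and without vehicle 1, vehicle 2, MS023 1 or MS023 3. Signs turned only in differences that were not called. Leaving out each library in turn, Gbp11 ranged from -0.18 to 1.08 with MS023, from -0.20 to 1.06 with GSK3368715 and from -0.19 to 1.07 pooled, each lowest without vehicle 2. The difference between inhibitors ranged from -0.18 to 0.054 for Gbp3, -0.23 to 0.16 for Gbp6, -0.15 to 0.0087 for Gbp7 and -0.40 to 0.38 for Gbp11. Prmt1 with GSK3368715 ranged from -0.0388 to 0.0315 in the same way and was 0.0025 after scaling to the same total. The cause was not tested. Low read counts limit Gbp8, Gbp10 and Gbp11 in the knockdown. With no filter, Gbp10 had a log2 fold change of 2.02 there (limma adjusted p = 0.13).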
